A study of Mus musculus with 16 samples.

Results

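The cadherins Cdh1, Cdh3, Cdh2, Cdh11 and Cdh13 were followed across normal mouse skin and skin carcinomas that differ in genotype and histology. A probeset, the group of oligonucleotides on the array that reads 1 transcript, was taken when the array annotation gave it 1 gene symbol among these names. This gave 11 of the 45037 probesets tested and 5 of 18193 genes. Cdh1 had 1 probeset, Cdh3, Cdh2 and Cdh11 had 2 each, and Cdh13 had 4. Where a gene had several, the 1 with the highest mean signal leads its description, called the leading probeset, and the others are given beside it.

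RNA of whole tissue from 4 control skins and 12 tumors was hybridised to Affymetrix MOE430 2.0 arrays, with 1 array per sample, and every value is a log2 signal from the RMA procedure, so that 1 unit is a doubling of signal. All samples were of the FVB background. Control skin came from normal wild type mice. The 7 p53 tumors arose in k14Cre;p53loxP/loxP mice and the 5 pRbp53 tumors in k14Cre;p53loxP/loxP;pRbloxP/loxP mice, in which the keratin 14 promoter directs Cre recombinase to stratified epithelia. The labelled histology of the p53 tumors was poorly differentiated for tumors 2, 4 and 5, mixed for 1 and 7, undifferentiated for 3 and spindle for 6. Among the pRbp53 tumors, tumor 4 was mixed and the other 4 spindle. The undifferentiated and spindle tumors form 1 class of 6, as in the methods of the study. Ages are not given, and the labels leave unsaid whether each sample is a different animal, so p-values measure only the spread between these samples.

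Classical cadherins are membrane proteins that bind the same kind of cadherin on the neighbouring cell and are tied to the actin cytoskeleton through catenins, forming the adherens junctions that hold an epithelium together. Keratinocytes carry E-cadherin (Cdh1) throughout the epidermis and P-cadherin (Cdh3) in its basal layer and in the hair follicle, whereas N-cadherin (Cdh2) and cadherin 11 (Cdh11) are known from neural and mesenchymal cells. Loss of E-cadherin with gain of N-cadherin is called the cadherin switch and is a hallmark of the epithelial to mesenchymal transition. T-cadherin (Cdh13) is an atypical member that is held in the membrane by a lipid anchor, has no cytoplasmic tail and serves as a receptor for adiponectin. On the mouse assembly GRCm38.p6, Cdh3 and Cdh1 are neighbours with 0 protein-coding genes between them.

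Several arrays stood apart before any cadherin was considered. Casein beta (Csn2), a milk protein, was between 8.75 and 13.67 in 5 arrays, namely control skin 3 and p53 tumors 2, 3, 4 and 5, and between 3.10 and 4.47 in the other 11. These 5 include all 3 poorly differentiated tumors and 1 of the 6 undifferentiated or spindle tumors, so the poorly differentiated class and the milk gene signal cannot be told apart. The poorly differentiated p53 tumor 5 had the highest casein signal, and its epidermal keratins Krt5 and Krt14 were at 4.76 and 4.41, against 10.77 to 11.73 and 12.81 to 12.93 in p53 tumors 4 and 2 of the same class. Its tissue label is squamous cell carcinoma, and these defining basal keratins were within or below the range of the spindle tumors in it. Its mean over 6 mammary markers was 11.75, the highest of all arrays, and whether mammary tissue contributes to it or to the other poorly differentiated tumors was not tested. The actin 3' minus 5' signal, a sign of RNA degradation, reached 1.67 for p53 tumor 7 and 1.33 for control skin 3, and lay between 0.21 and 0.68 elsewhere. Control skins 2 and 4 were more alike than any other pair of control skins, with an SD of 0.22 over probesets against 0.41 to 0.57.

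Cdh1 separated the tumors by histology. Its log2 signals were 10.89, 10.90, 11.37 and 11.11 in control skins 1 to 4. The poorly differentiated p53 tumors 2, 4 and 5 had 11.30, 10.97 and 10.62, and the 6 undifferentiated or spindle tumors ran from 3.91 through a median of 4.74 to 6.48. The poorly differentiated tumors thus lay in the range of skin or just under it, and every undifferentiated or spindle tumor lay below every other sample. Of all probesets, 13.8% had no overlap between these tumor classes, and 20.8% had none between the undifferentiated or spindle class and skin. Within that class the only undifferentiated tumor, p53 tumor 3, was the highest, and the 5 spindle tumors lay between 3.91 and 5.10 in both genotypes. Cdh1 fell by 6.09 ± 0.50 (SE) in undifferentiated or spindle against poorly differentiated tumors, a signal 67.9-fold lower (limma, adjusted p = 0.000258, n = 6 and 3). The spindle signals cannot be told from array background here, so the fold is one between signals and bounds the RNA difference only from below. Against control skin it fell by 6.19 ± 0.42 in the same class (limma, adjusted p = 2.60e-06, n = 6 and 4). In poorly differentiated tumors the difference from skin was -0.11, with a 95% interval from -0.58 to 0.37. The grade difference was -5.58 in p53 tumors alone (limma, adjusted p = 0.0416), so it was found within 1 genotype. p53 tumor 3, which carries the casein signal, had 6.48, below every poorly differentiated tumor. Without the 5 casein arrays the difference of undifferentiated or spindle tumors from skin was -6.41 (limma, adjusted p = 1.23e-06). The grade difference cannot be computed without those arrays, which hold every poorly differentiated tumor. The part of the casein signal in it was not tested.

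The mixed tumors filled the gap. Cdh1 was 7.53 in p53 tumor 1, 9.43 in pRbp53 tumor 4 and 10.43 in p53 tumor 7, all below the 4 skins and all above the undifferentiated or spindle tumors. Neither difference passed, at -1.94 ± 0.62 against skin (limma, adjusted p = 0.119) and 4.25 ± 0.70 against undifferentiated or spindle tumors (limma, adjusted p = 0.118). No overlap was found for 21.5% of all probesets between mixed tumors and skin, and for 5.94% between mixed and undifferentiated or spindle tumors. In bulk tissue, fewer epithelial cells and less Cdh1 RNA per cell cannot be told apart, and this holds for every gene below.

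**Figure D1:**
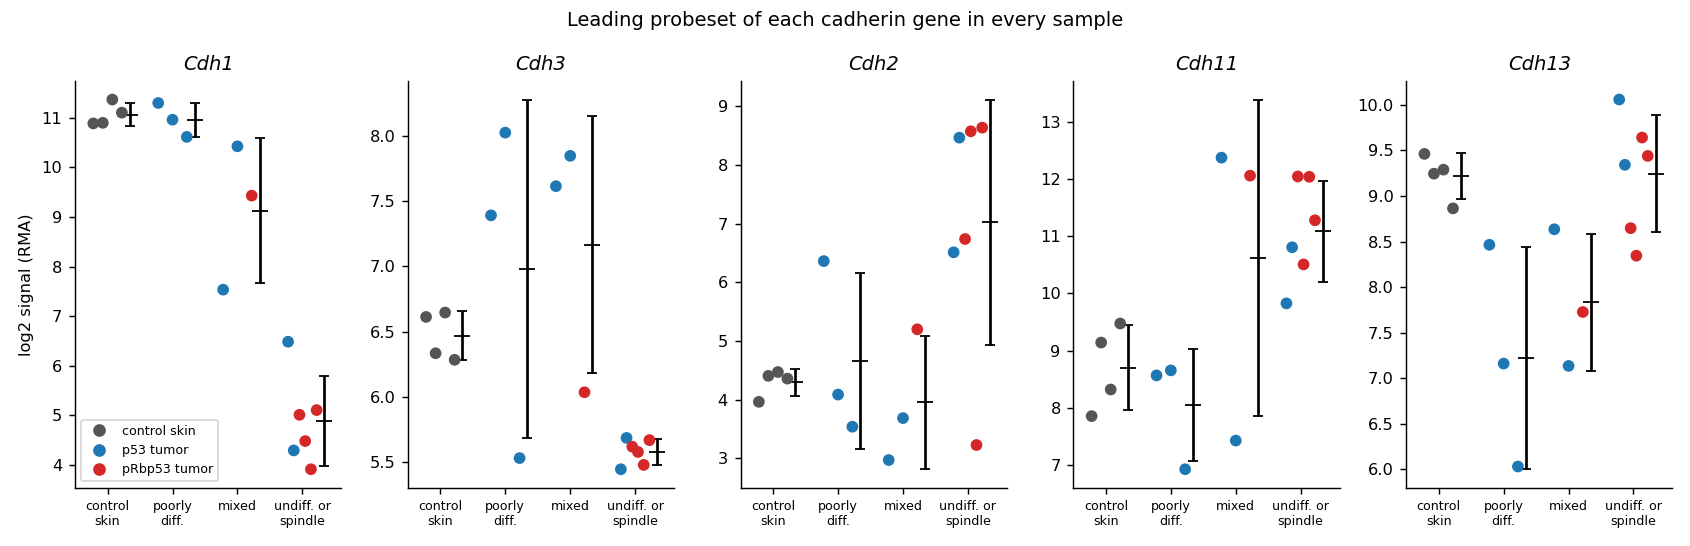
Log2 signal of the leading probeset of each cadherin gene in every sample, by histology, with genotype in colour, and the mean and SD of each class as a bar. Cdh1 was between 3.91 and 6.48 in the undifferentiated or spindle tumors and between 10.62 and 11.37 in skin and poorly differentiated tumors, and Cdh2 was between 6.51 and 8.64 in 5 of those 6 tumors and 3.23 in the other.

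Cdh3 did not follow Cdh1 in every tumor. The control skins 1 to 4 had 6.61, 6.33, 6.65 and 6.28. The undifferentiated or spindle tumors lay between 5.45 and 5.69 with a median of 5.60, under every skin, where 20.8% of probesets did not overlap. Cdh3 fell by 0.89 ± 0.10 in them against skin (limma, adjusted p = 0.000172, n = 6 and 4), a signal 1.85-fold lower, and did not pass in a fit sharing 1 spread over all samples (limma, adjusted p = 0.152). Their Cdh3 signals cannot be told from array background here, so this fold too is one between signals and bounds the RNA difference only from below. By contrast p53 tumors 2 and 4, poorly differentiated, had 7.39 and 8.02, and p53 tumors 1 and 7, mixed, had 7.61 and 7.85, all above the highest skin. The exceptions were p53 tumor 5, poorly differentiated with 5.53, and pRbp53 tumor 4, mixed with 6.04. The tumor at 5.53 is the one whose Krt5 and Krt14 were low, and its Cdh1 was 10.62. The grade difference of -1.40 ± 0.45 did not pass (limma, adjusted p = 0.1), and neither did the difference of 0.51 ± 0.54 between poorly differentiated tumors and skin (limma, adjusted p = 0.612). Without p53 tumor 5 both passed, at -2.13 (limma, adjusted p = 0.000312) and 1.24 (limma, adjusted p = 0.00849). A second probeset of Cdh3, 1441255_at, spanned only 0.69 log2 units over the 16 arrays, from 3.28 to 3.97, and passed in no comparison.

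Cdh2 was high in most undifferentiated or spindle tumors but not in all. The control skins 1 to 4 had 3.96, 4.41, 4.47 and 4.36. The class ran from 3.23 through a median of 7.60 to 8.64, with 8.47 in p53 tumor 6, 8.58 in pRbp53 tumor 2 and 8.64 in pRbp53 tumor 5. Its lowest sample, pRbp53 tumor 3, was a spindle tumor with a Cdh2 signal not above skin, and the other 5 were above every skin. Signals at the level of skin or below cannot be told from array background here, so their order is not read. The remaining tumors with a raised level were p53 tumor 2, poorly differentiated with 6.36, and pRbp53 tumor 4, mixed with 5.20. In p53 tumors 4, 5, 1 and 7 Cdh2 was 4.09, 3.54, 2.97 and 3.69. The differences of 2.73 ± 0.95 from skin (limma, adjusted p = 0.0618, n = 6 and 4) and of 2.36 ± 1.22 from poorly differentiated tumors (limma, adjusted p = 0.312, n = 6 and 3) did not pass. Without pRbp53 tumor 3 the former was 3.49 and passed (limma, adjusted p = 0.000719), while the latter was 3.12 and did not (limma, adjusted p = 0.0602). The second probeset, 1449244_at, gave 2.28 ± 0.79 and 2.12 ± 0.96 for the same differences, and also passed in neither (limma, adjusted p = 0.0601 and 0.241). The Pearson correlation of the probesets was 0.97 over the 16 arrays.

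Cdh11 was higher in all undifferentiated or spindle tumors. The control skins 1 to 4 had 7.86, 9.14, 8.32 and 9.47, and the poorly differentiated p53 tumors 2, 4 and 5 had 8.57, 8.65 and 6.93. The undifferentiated or spindle tumors ran from 9.83 through a median of 11.04 to 12.04 and overlapped neither group. No overlap with skin held for 20.8% of all probesets, and with poorly differentiated tumors for 13.8%. Cdh11 rose by 3.03 ± 0.58 against poorly differentiated tumors, an 8.18-fold higher signal (limma, adjusted p = 0.0157, n = 6 and 3), and by 2.38 ± 0.48 against skin, a 5.22-fold higher signal (limma, adjusted p = 0.00486, n = 6 and 4). The highest value of all, 12.37, was in p53 tumor 1, which is mixed, and pRbp53 tumor 4, also mixed, had 12.06, whereas p53 tumor 7 of the same class had 7.43. The grade difference was 2.27 and did not pass in p53 tumors alone (limma, adjusted p = 0.187), where 2 undifferentiated or spindle tumors remain, nor with genotype as a covariate (limma, adjusted p = 0.108), and it also missed the threshold by the methods' t-test, an unpaired test without moderation of the variance (adjusted p = 0.164, n = 6 and 3) and in the shared fit (limma, adjusted p = 0.0504). The shared fit took away the call against skin too (limma, adjusted p = 0.0574). The second probeset, 1435120_at, rose by 1.94 ± 0.52 against skin (limma, adjusted p = 0.0201), and its grade difference of 1.97 ± 0.60 did not pass (limma, adjusted p = 0.0867).

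By its leading probeset, Cdh13 was below skin in every poorly differentiated and mixed tumor. Without overlap with skin, in either direction, were 27.4% of all probesets in poorly differentiated and 21.5% in mixed tumors. The control skins 1 to 4 had 9.46, 9.24, 9.29 and 8.86, and the undifferentiated or spindle tumors ran from 8.35 through a median of 9.39 to 10.06, on both sides of skin. The poorly differentiated p53 tumors 2, 4 and 5 had 8.46, 7.16 and 6.03, and the mixed p53 tumors 1 and 7 and pRbp53 tumor 4 had 8.63, 7.14 and 7.73, all below the lowest skin. The poorly differentiated mean fell to 7.22 ± 1.22 (SD, n = 3) from 9.22 ± 0.25 (SD, n = 4) in skin, a signal 3.99-fold lower (limma, adjusted p = 0.0413, n = 3 and 4). This call was lost when any 1 of the 4 skins or p53 tumor 4 was left out, with differences from -2.11 to -1.91 and adjusted p between 0.0786 and 0.111 (limma). The grade difference of 2.03 ± 0.54 did not pass (limma, adjusted p = 0.0569), while without p53 tumor 2 it was 2.65 and passed (limma, adjusted p = 0.024). In undifferentiated or spindle tumors the difference from skin was 0.03, with a 95% interval from -0.65 to 0.72. Of the other probesets, 1434115_at and 1454015_a_at followed the leading one over the 16 arrays with Pearson correlations of 0.99 and 0.86, and 1454015_a_at rose by 2.55 ± 0.59 with grade (limma, adjusted p = 0.0343) while 1434115_at, at 1.74 ± 0.57, did not pass (limma, adjusted p = 0.11). In poorly differentiated tumors against skin neither passed, at -1.75 ± 0.55 and -1.74 ± 0.74 (limma, adjusted p = 0.0801 and 0.177), so that call rests on the leading probeset. On 1434115_at p53 tumor 2 was at 8.60, above control skin 4 at 8.55. On 1454015_a_at control skin 3, at 4.48, lay below p53 tumors 1 and 2 and pRbp53 tumor 4, at 6.19, 5.78 and 4.54. The probeset 1431824_at stayed within 0.63 log2 units and passed nowhere.

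**Figure D2:**
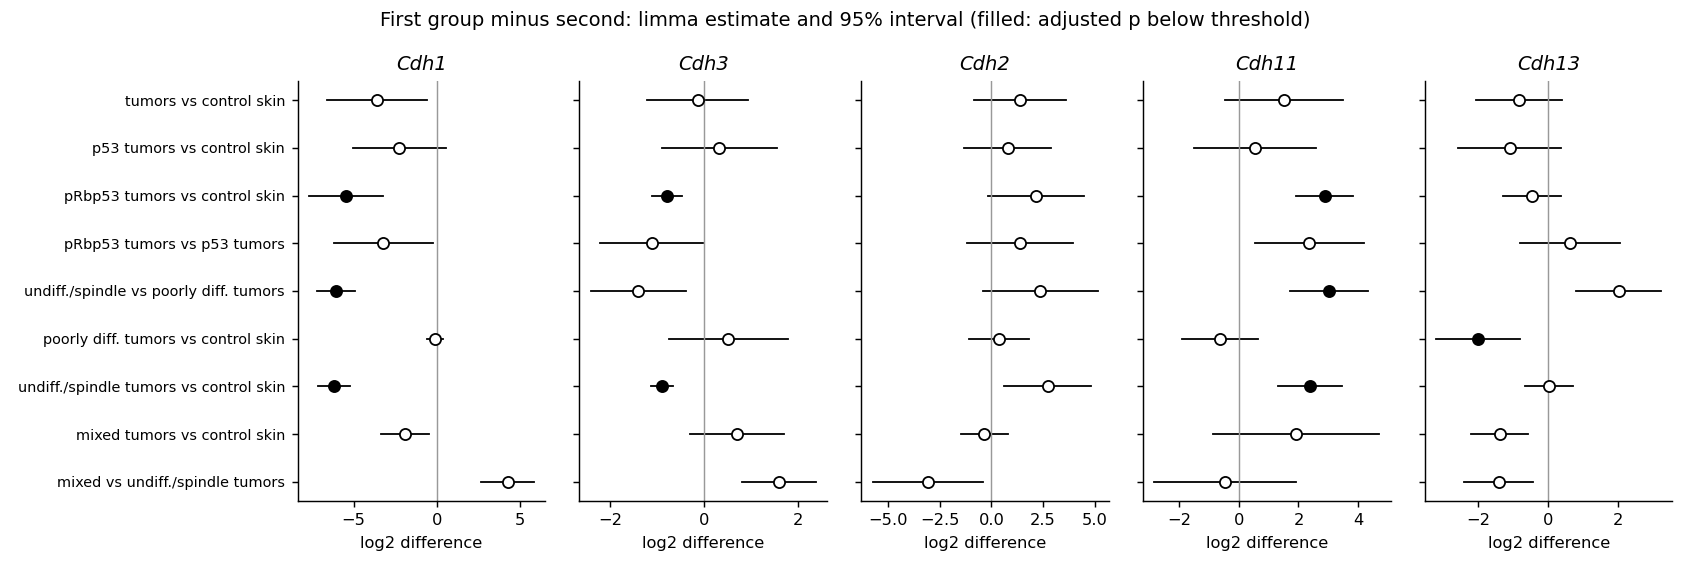
Log2 difference of the leading probeset of each gene in 9 comparisons, with the first group named minus the second, the limma estimate as a point and its 95% interval as a line. Filled points passed the threshold of the comparison, as Cdh1 did at -6.09 and Cdh11 at 3.03 in undifferentiated or spindle against poorly differentiated tumors, and no gene passed when all tumors were set against skin.

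Counted over the 5 genes, 2 passed in undifferentiated or spindle against poorly differentiated tumors, where 7.39% of all probesets passed. In the same class against skin 3 of 5 passed, where 24.1% of all probesets did, and in poorly differentiated tumors against skin 1 of 5 passed, where 14.8% did. In mixed tumors 0 of 5 passed against skin and 0 of 5 against undifferentiated or spindle tumors, where 7.29% and 0.0178% of all probesets passed by limma. At an unadjusted p under 0.05 these counts were 2 and 4, beside 9912 and 5776 of the 45037 probesets. The methods' t-test called 0 in each after adjustment, beside 378 and 0 of all probesets. Left-out arrays decided several of these. Against skin, Cdh13 passed without p53 tumor 1, Cdh1 and Cdh11 without p53 tumor 7 and Cdh3 without pRbp53 tumor 4, at -1.78, -2.58, 3.52 and 1.26 (limma, adjusted p from 0.00664 to 0.0236). Against undifferentiated or spindle tumors, Cdh1 passed without p53 tumor 1 and Cdh3 without pRbp53 tumor 4, at 5.05 and 2.15 (limma, adjusted p = 0.0151 and 0.00172). The comparisons against skin share the same 4 control skins.

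When histology was set aside and all 12 tumors were compared with skin, 0 of 5 genes passed by limma, against 13.2% of all probesets. At an unadjusted p under 0.05 there was 1 gene, beside 11874 of the 45037 probesets. That gene was Cdh1, at -3.61 ± 1.41 (limma, adjusted p = 0.109), whose tumors spanned 7.40 log2 units. The methods' t-test, computed with a separate variance for each group, did call Cdh1 (adjusted p = 0.0119, n = 12 and 4). The SD of Cdh1 was 2.92 in tumors and 0.23 in skin. In p53 tumors against skin 0 of 5 passed by either test, against 10.7% by limma. An unadjusted p under 0.05 was found for 0 of the 5, beside 10913 of the 45037 probesets. In pRbp53 tumors against skin 3 of 5 passed, against 18.3% of all probesets. Cdh1 fell by 5.48 ± 0.98 (limma, adjusted p = 0.00457), Cdh3 fell by 0.79 ± 0.14 (limma, adjusted p = 0.00445) and Cdh11 rose by 2.89 ± 0.42 (limma, adjusted p = 0.00158). All 3 kept their call when any 1 array was left out. However, Cdh3 lost its call in a fit that grouped same-numbered samples, the replicate block described below, and in the fit sharing 1 spread over all samples. The SD of Cdh3 was 0.21 in pRbp53 tumors and 1.18 in p53 tumors, which the shared fit pools. Cdh2 was at 2.18 ± 1.03 (limma, adjusted p = 0.191), and at 2.99 without pRbp53 tumor 3, where it passed (limma, adjusted p = 0.0221).

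Between the genotypes themselves 0 of 5 genes passed at the adjusted p of 0.1 used for this comparison, where 0.198% of all probesets passed by limma. At an unadjusted p under 0.05 there were 3, beside 4184 of the 45037 probesets. The methods' t-test called 0 after adjustment. Cdh1 differed by -3.22 ± 1.37, Cdh3 by -1.12 ± 0.50 and Cdh11 by 2.36 ± 0.84 in pRbp53 against p53 tumors (limma, adjusted p = 0.499, 0.532 and 0.41). Genotype and histology overlap, since 4 of the 5 pRbp53 tumors were spindle and 2 of the 7 p53 tumors were undifferentiated or spindle. With histology as a covariate the genotype difference was -0.36 for Cdh1, -0.55 for Cdh3, 0.16 for Cdh2, 1.49 for Cdh11 and -0.51 for Cdh13.

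Read tumor by tumor, low Cdh1 came with several combinations of the other cadherins. p53 tumor 6 and pRbp53 tumors 1, 2 and 5, all spindle, had Cdh1 at 5.10 or less, Cdh2 at 6.74 or more and Cdh11 at 10.51 or more. pRbp53 tumor 3, also spindle, had the lowest Cdh1 of all, 3.91, with Cdh11 at 12.04 and Cdh2 at 3.23. A raised Cdh11 also occurred with Cdh1 still high, as in pRbp53 tumor 4, where they were 12.06 and 9.43. A raised Cdh2 occurred with Cdh1 at the level of skin in p53 tumor 2, at 6.36 and 11.30. The mixed p53 tumor 1 had high Cdh11 and high Cdh3, 12.37 and 7.61, with Cdh2 at 2.97, which cannot be told from array background.

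**Figure D3:**
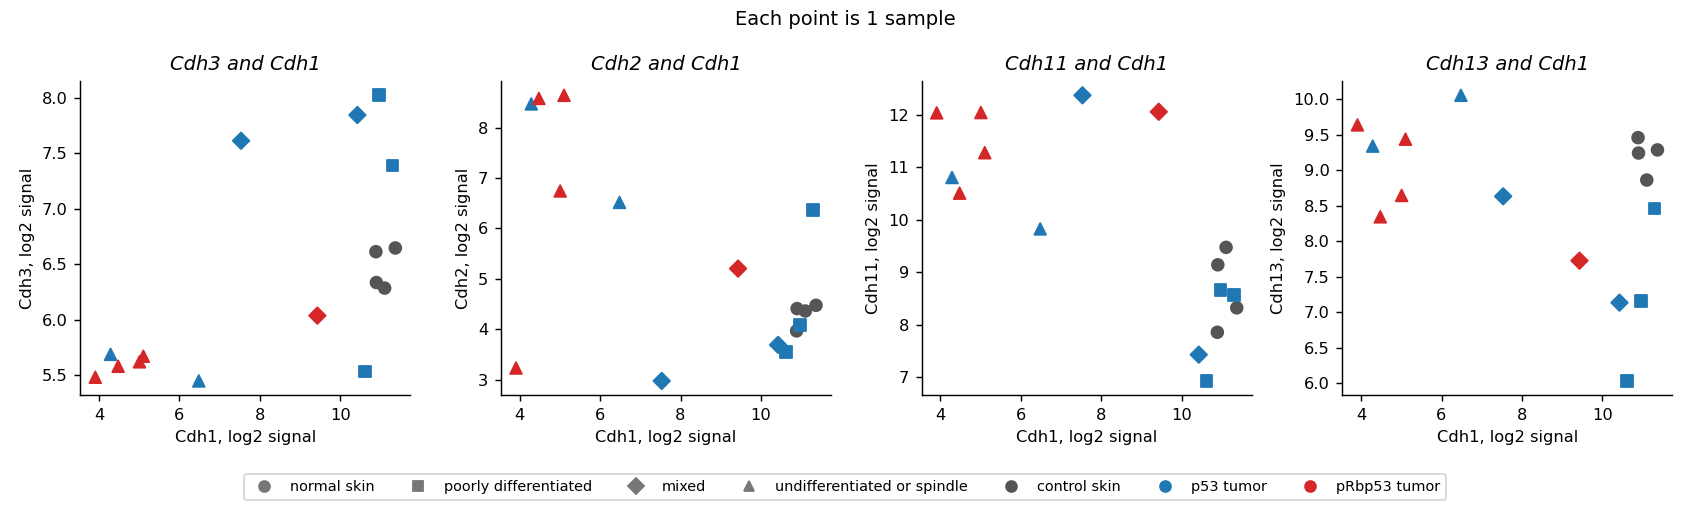
Log2 signal of Cdh1 on the horizontal axis against Cdh3, Cdh2, Cdh11 and Cdh13 on the vertical axes, with 1 point per sample, genotype in colour and histology as the marker shape. The 6 undifferentiated or spindle tumors lie apart on the left, at a Cdh1 signal of 6.48 or less, and their Cdh2 ranges from 3.23 to 8.64.

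Because the tumors formed separate clusters on Cdh1, no correlation over all 12 was taken as a result. Within the 6 undifferentiated or spindle tumors, the largest Pearson r among the 10 gene pairs was 0.71 between Cdh3 and Cdh2 (Spearman rho = 0.66, exact permutation p = 0.108 and 0.175, adjusted p = 0.678 and 0.793 over the 10 pairs). It was 0.24 without the 2 tumors farthest from the median of Cdh3, so it rests on them. Cdh1 and Cdh2 had r = 0.18 and rho = 0.26 in that class (exact permutation p = 0.678 and 0.658), and r was -0.42 without the 2 farthest tumors. Among the 6 poorly differentiated or mixed tumors the strongest pair was Cdh1 with Cdh11, r = -0.81 and rho = -0.54 (exact permutation p = 0.0514 and 0.297, adjusted p = 0.514 and 0.991). It was 0.82 without the 2 farthest tumors, and rests on them too.

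Genes listed as repressors of Cdh1 and those listed as epithelial activators moved with grade in opposite directions, where they passed. Of 10 measured repressors of Cdh1, which bind E-box elements or act through factors that do, 4 rose and 0 fell in undifferentiated or spindle against poorly differentiated tumors, with a median of 1.55 against 0.01 over all probesets, of which 7.39% passed in either direction. These were the zinc finger factors Zeb1 (3.27 ± 0.30), Zeb2 (2.69 ± 0.45) and Snai1 (3.02 ± 0.51) and the basic helix-loop-helix factor Twist2 (3.16 ± 0.59), with adjusted p between 0.000499 and 0.0145 (limma). Snai2, a relative of Snai1 that basal keratinocytes also express, was at 0.22 ± 1.11 (limma, adjusted p = 0.94). Zeb1 had 6.84, 7.22 and 6.48 in the poorly differentiated p53 tumors 2, 4 and 5, and 9.26 to 10.58 in the 6 undifferentiated or spindle tumors. It was 8.88 to 9.20 in skin, between the classes and overlapping neither. No overlap with skin was found for 27.4% of all probesets in poorly differentiated and 20.8% in undifferentiated or spindle tumors. Against skin, Zeb1 fell by 2.16 ± 0.19 in poorly differentiated tumors and rose by 1.11 ± 0.24 in undifferentiated or spindle tumors (limma, adjusted p = 0.000489 and 0.00724). Snai1 lay between 4.91 and 5.76 in skin, between 4.73 and 6.05 in poorly differentiated and between 7.06 and 9.49 in undifferentiated or spindle tumors.

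Of 11 epithelial activators, transcription and splicing factors that maintain the epithelial state, 8 fell and 0 rose with grade, where 7.39% of all probesets passed, with a median of -2.71. The largest falls were in Esrp1, an epithelial splicing regulator (-7.22 ± 0.30 on the log2 scale), the Ets factor Ehf (-6.93 ± 0.32), the grainyhead factor Grhl1 (-5.59 ± 0.14) and Esrp2 (-4.76 ± 0.22), with adjusted p from 5.56e-07 to 9.19e-06 (limma). Esrp1 ran from 3.68 to 4.37 in undifferentiated or spindle tumors, from 10.37 to 11.93 in poorly differentiated tumors and from 10.94 to 11.34 in skin. Against skin 10 of the 11 fell in undifferentiated or spindle tumors, where 24.1% of all probesets passed. In poorly differentiated tumors, where 14.8% of all probesets passed, Ehf, Elf3 and Grhl2 rose by 4.38 ± 0.50, 2.09 ± 0.33 and 1.05 ± 0.21 against skin (limma, adjusted p = 0.00156, 0.00672 and 0.0148), and Grhl1 fell by 0.78 ± 0.19 (limma, adjusted p = 0.0382). All poorly differentiated tumors carried the casein signal, and Ehf was 10.61, 9.17 and 10.55 in them against 3.14 to 4.59 in the mixed tumors, which did not carry it. The other 2 casein arrays had Ehf at 3.63 in p53 tumor 3, the highest of the undifferentiated or spindle tumors but below every poorly differentiated tumor, and at 5.77 in control skin 3, within the range of the other skins. The part of the casein signal in these differences was not tested.

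**Figure D4:**
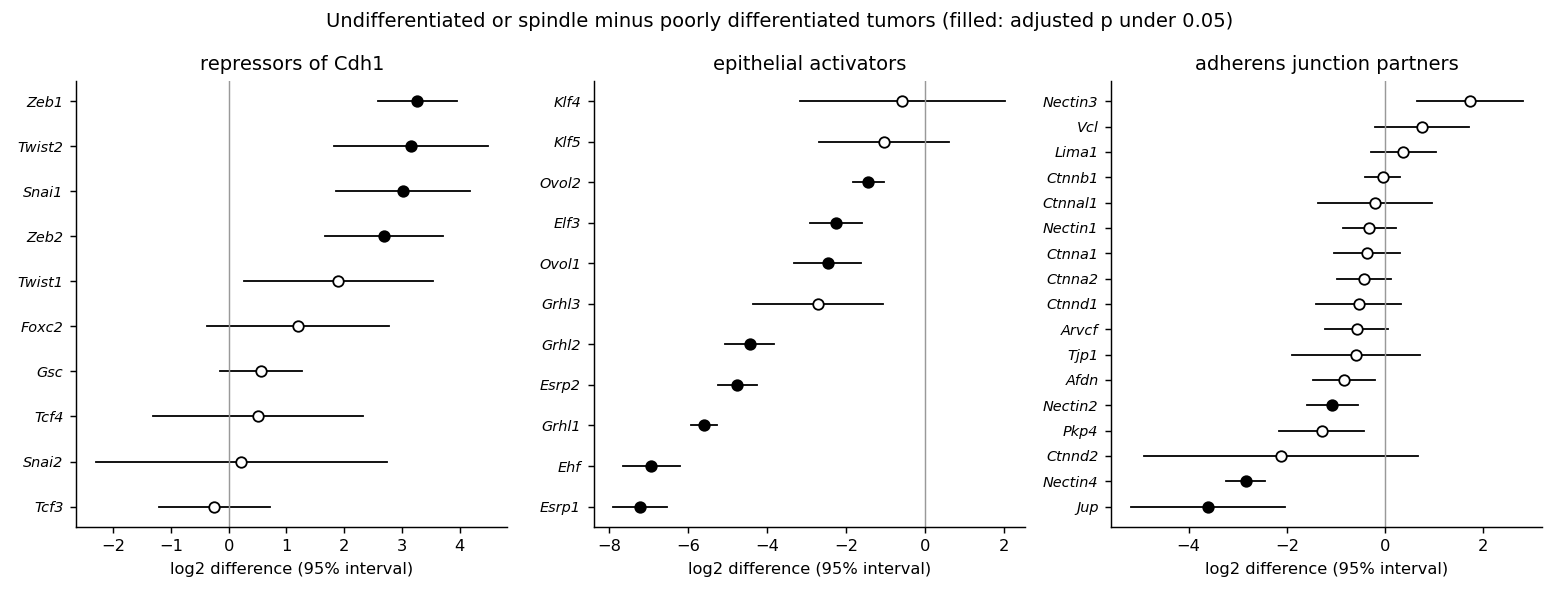
Log2 difference between undifferentiated or spindle and poorly differentiated tumors for the repressors of Cdh1, the epithelial activators and the adherens junction partners, with 95% intervals and filled points for genes that passed. Zeb1, Twist2, Snai1 and Zeb2 lie between 2.69 and 3.27, Esrp1 lies at -7.22, and Ctnnb1 lies at -0.05.

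Of 17 adherens junction partners 3 fell with grade and 0 rose, where 7.39% of all probesets passed in either direction, and the list median was -0.54. They were plakoglobin, Jup (-3.61 ± 0.69), which links cadherins to the cytoskeleton in adherens junctions and desmosomes, and the nectins Nectin4 (-2.84 ± 0.18) and Nectin2 (-1.08 ± 0.23), immunoglobulin-type adhesion molecules (limma, adjusted p = 0.0162, 5.04e-05 and 0.0247). Ctnna1 and Ctnnd1, alpha and p120 catenin, were at -0.37 ± 0.30 and -0.54 ± 0.38 with grade and did not pass (limma, adjusted p = 0.543 and 0.475). Ctnnb1, beta catenin, was at -0.05 ± 0.16 with grade, and rose by 0.49 ± 0.12 in all tumors against skin (limma, adjusted p = 0.015). In that comparison Nectin4 and Afdn, the nectin anchor afadin, fell, at -2.62 ± 0.68 and -1.50 ± 0.47 (limma, adjusted p = 0.0164 and 0.0447).

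Of 16 other measured cadherins 0 passed with grade and 1 in all tumors against skin, where 7.39% and 13.2% of all probesets passed, so neither count stands apart from the background. The 1 was Cdh4, R-cadherin, which fell by 3.04 ± 0.45 (limma, adjusted p = 0.000259). It was 9.14, 8.02, 9.36 and 8.46 in control skins 1 to 4 and 4.82 to 7.95 in the tumors, without overlap. Such a separation of all tumors from skin held for 6.86% of all probesets. Of 11 genes for proteases and other factors that process cadherins at the membrane, 3 rose with grade and 0 fell, where 7.39% of all probesets passed. These were Mmp3 and Mmp14, secreted and membrane-bound matrix metalloproteinases (4.94 ± 1.20 and 2.49 ± 0.57), and Adam9, a membrane metalloproteinase (1.83 ± 0.20), with adjusted p of 0.0421, 0.0331 and 0.00112 (limma).

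Markers of other cell types moved with the same classes, and the counts by grade that follow stand beside 7.39% of all probesets passing. With grade, 7 of 11 fibroblast markers rose, among them Pdgfra (3.19 ± 0.80), Dcn (3.02 ± 0.48), Col1a1 (2.91 ± 0.67) and Postn (2.26 ± 0.53), and 0 fell. The mean signal over that list was 11.41 to 13.08 in undifferentiated or spindle, 8.63 to 10.39 in poorly differentiated and 10.42 to 11.44 in mixed tumors, and 11.93 to 12.23 in skin. Undifferentiated or spindle tumors therefore stood above poorly differentiated tumors on both Cdh11 and the fibroblast list, and on the list they overlapped skin. pRbp53 tumor 3, with Cdh2 at 3.23, had the highest fibroblast list mean. Of 8 macrophage markers 6 rose with grade, among them Mrc1 (2.98 ± 0.72), Itgam (2.48 ± 0.31), Lyz2 (2.48 ± 0.29) and Adgre1 (2.02 ± 0.48). The endothelial marker Pecam1 rose by 0.86 ± 0.19, the only one of 10 to pass, a share near that of all probesets. All these had adjusted p from 0.00177 to 0.0457 (limma).

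Of 11 keratinocyte markers 4 fell with grade, against the same 7.39% of all probesets, namely Dsp (-7.50 ± 0.45), Epcam (-6.96 ± 0.48), Perp (-5.02 ± 1.02) and Itgb4 (-3.09 ± 0.28), with adjusted p from 4.48e-05 to 0.0206 (limma). The mean over the list was 12.15 to 12.26 in skin, 7.67 to 10.77 in poorly differentiated, 6.74 to 11.89 in mixed and 5.30 to 6.81 in undifferentiated or spindle tumors. Of 6 mammary markers 3 fell with grade, Csn3 (-6.59 ± 1.40), Csn1s1 (-6.28 ± 1.19) and Lalba (-3.45 ± 0.83), with adjusted p from 0.0153 to 0.0403 (limma). The Schwann cell marker Mbp fell by 1.46 ± 0.16 (limma, adjusted p = 0.00119), 1 of 3 measured. Of the skeletal muscle, smooth muscle, adipocyte, melanocyte and Langerhans cell markers 0 passed with grade. The part of any of these cell types in the cadherin differences was not tested.

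Markers of skeletal muscle and fat, and some of keratinocytes, were lower in the tumors than in skin. All 9 skeletal muscle markers fell in tumors against skin, where 13.2% of all probesets passed, led by Myh4 (-9.13 ± 0.51) and Myl1 (-8.13 ± 0.73), and all 6 adipocyte markers fell, led by Car3 (-6.88 ± 0.98) and Adipoq (-6.31 ± 0.78), which encodes the ligand of Cdh13 (limma, adjusted p from 2.02e-09 to 0.000172 for these 4). The mean over the muscle list was 13.19 to 13.44 in skin and 4.89 to 8.71 in tumors. Of the 11 keratinocyte markers 6 did not pass and 5 fell, led by Krt1 (-7.74 ± 0.94), Krt15 (-6.26 ± 1.54), Krt10 (-5.95 ± 0.92) and Col17a1 (-5.76 ± 1.47), with adjusted p from 3.01e-05 to 0.0154 (limma). Of 6 melanocyte markers 3 fell, led by Dct (-3.04 ± 0.21), and of 7 smooth muscle markers 2 fell, led by Synpo2 (-5.58 ± 0.47). Of 5 Langerhans cell markers 1 fell, Cd207 (-4.08 ± 0.27), of 8 macrophage markers 1 fell, Cd163 (-2.69 ± 0.67), and of 10 endothelial markers 1 fell, Tek (-2.14 ± 0.55), and 1 rose, Flt1 (1.22 ± 0.38). All these had adjusted p of 0.0426 or less (limma). With 13.2% of all probesets passing, the Langerhans cell, macrophage and endothelial counts do not stand apart from the background. Of the fibroblast markers 0 passed in this comparison. The part of these tissues in the differences of cadherins from skin was not tested.

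**Figure D5:**
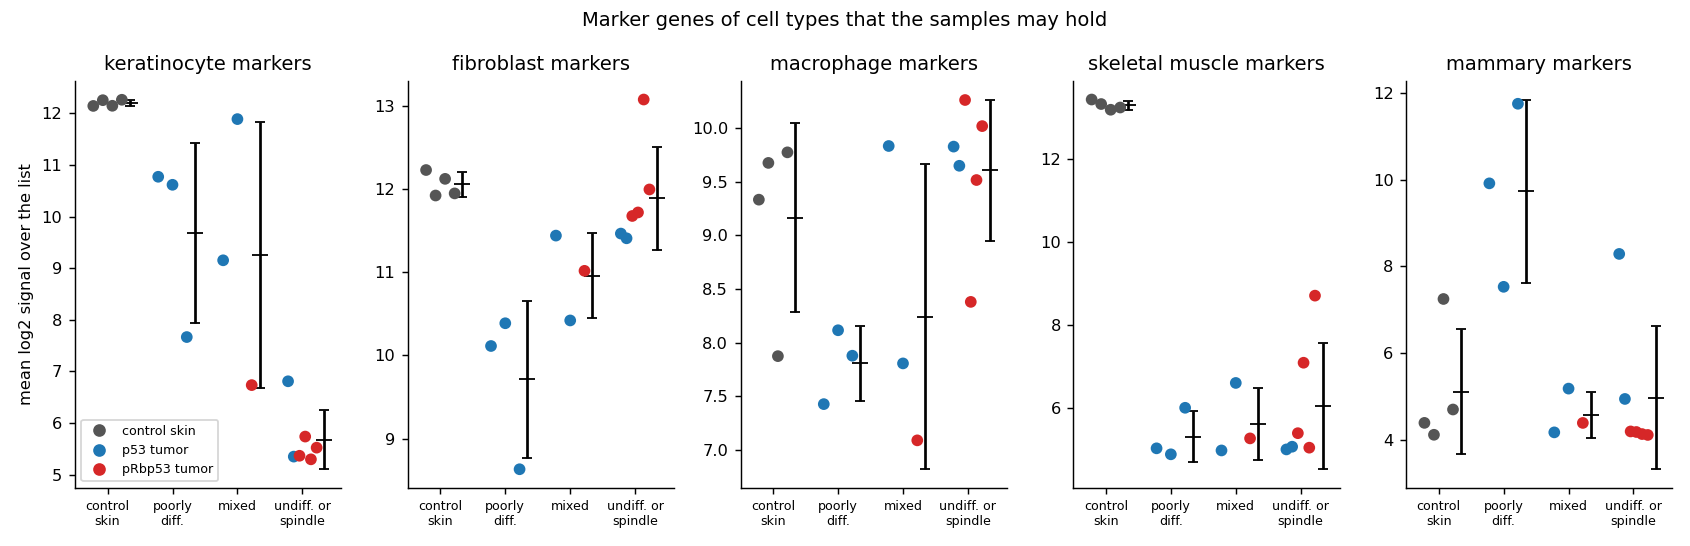
Mean log2 signal over 5 lists of cell type markers in every sample, by histology, with genotype in colour, and the mean and SD of each class as a bar. Fibroblast markers lie at 8.63 to 10.39 in poorly differentiated and at 11.41 to 13.08 in undifferentiated or spindle tumors, and muscle markers at 13.19 to 13.44 in skin and at 8.71 or less in tumors.

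The genes most like each cadherin over the 12 tumors, by Pearson r among 18192 genes, differed between the 5. For Cdh1 they were Grhl2 (0.98), Esrp1 (0.97), Ripk4 (0.96), Epcam (0.95) and Mia (0.95). For Cdh3 the 5 included the basal keratins Krt5 (0.96) and Krt14 (0.95), with Egfl6 (0.95) and Padi3 (0.94). For Cdh11 they were Fat4 (0.97), Dffb (0.95), Marcks (0.95), Mtfr1l (0.95) and Cntln (0.95), and for Cdh13 they were Atp2a2, Birc3, Fam171a1 and Praf2 (0.92 each) and Nt5dc2 (0.91). The closest to Cdh2 were less close, with Wdr4 (0.88), Lsm2 (0.88), Patl1 (0.86), Cpt1a (0.86) and Thoc6 (0.86). These values describe the 12 tumors and share their clusters by histology.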

How the data were processed

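RNA of 4 control skins and 12 carcinomas was measured on 1 array per sample. The authors made the deposited log2 signal values with RMA, which corrects background, normalizes arrays to 1 distribution and summarises the probes of a probeset, and its version is not given in the sources used here. Of 45101 probesets 64 array controls were left out. The array annotation, with symbols updated by gene ID, gave 1 symbol for 34945 probesets, several for 932 and none for 9160. Array medians ran from 5.63 to 5.76, and precision is set by how many arrays each group has. The table used here holds no detection calls, so a low signal cannot be told from background.

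Models of 2 groups were fitted to all 45037 probesets with limma 3.58.1 in R 4.3.3 and adjusted by Benjamini-Hochberg, two-sided, at 0.05 and at 0.1 for genotype, and were tested on simulated data. Correlations were tested by exact permutation, and figures were drawn with matplotlib 3.10.9. The members and the gene lists were chosen with earlier results of these data known. The text names every cadherin member, up to 4 genes per list with the largest difference among those that passed in tumors against skin and by grade, and the 5 genes most like each cadherin, except 1 for Cdh3 that is not reported here. Named beyond this rule, after their values were seen, are Csn2, Krt5 and Krt14 in p53 tumor 5, Snai2, Ctnna1, Ctnnd1, Elf3, and Grhl2 and Ctnnb1 where they are given by grade or against skin in a class. Alternatives covered scaling, filters, prior, weights, covariates, a replicate block, exact permutation tests, other probesets and left-out arrays.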

Additional observations from a re-analysis of the deposited data

Results flagged for a closer look

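In 44 groups of 4 to 7 samples, formed from the 11 probesets, 3 held a sample far from the others, where chance gives about 1 in 20. Cdh1 in pRbp53 tumor 4, the mixed tumor of that genotype, was 9.43, while the 4 spindle tumors of the genotype were between 3.91 and 5.10. Probeset 1435120_at of Cdh11 in p53 tumor 1, a mixed tumor, was 8.26, against a median of 4.58 over the p53 tumors. Probeset 1454015_a_at of Cdh13 in control skin 3 was 4.48, against a control skin median of 6.82, and the same array carried the casein signal and an actin 3' minus 5' signal of 1.33. Their part in that value was not tested.

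The tumor classes differed in Cdh1 by -6.09 and in Cdh11 by 3.03, undifferentiated or spindle minus poorly differentiated (limma, adjusted p = 0.000258 and 0.0157).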

How the results depend on the processing

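Over all alternatives and cadherin probesets, 938 gene values kept their direction and side of the threshold, 36 passed newly, 24 no longer passed and 32 changed sign. The alternatives include an exact permutation test of each gene, whose unadjusted p was set against the threshold used for adjusted p. The number of arrays limits all of these counts. Unless stated, the cause of a change was not tested. Alternatives without the casein arrays, with spindle tumors only and with p53 tumors only were chosen after seeing the data.

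Deviations from group means correlated with r over 0.1 in 3 of 13 pairs of same-numbered samples, the highest at 0.25. Pairs with different numbers were not examined, so whether the numbers pair samples was not tested. With the replicate block, 0 cadherin genes and 0 probesets passed by grade, where few residual degrees of freedom remain, and 35 probesets passed by genotype. Cdh3 in pRbp53 tumors, Cdh11 in undifferentiated or spindle tumors and Cdh13 in poorly differentiated tumors against skin no longer passed (limma, adjusted p = 0.0637, 0.0978 and 0.0568), and Cdh3 in poorly differentiated tumors passed at 1.40 (limma, adjusted p = 0.0294). Under the replicate block Cdh1 in poorly differentiated tumors against skin was 0.13, Cdh13 in undifferentiated or spindle tumors against skin was -0.29 and Cdh11 in mixed against undifferentiated or spindle tumors was 0.33.

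All tumors against skin gave 1 cadherin gene and 14405 probesets with array weights, 1 and 8987 by the methods' t-test, and 3744 to 6908 probesets with 1 array left out, the lowest without control skin 1. Genotype gave 89 probesets in the main comparison, 288 with array weights, 468 in a fit shared over all samples, 25 by the methods' t-test, 54 with histology as a covariate, 7 without the casein arrays and 47 to 216 with 1 array left out, with moves of over 1.5 times without p53 tumors 1, 2 and 6 (152, 47 and 216) and pRbp53 tumors 3, 4 and 5 (53, 184 and 55). Grade gave 1 cadherin gene and 825 probesets by the methods' t-test, 1 and 2024 with genotype as a covariate, 1 and 827 in p53 tumors only, and 2039 to 3473 probesets with 1 array left out, the lowest without p53 tumor 4. The gene that kept its call in each was Cdh1. In poorly differentiated tumors against skin 0 cadherin genes passed by the methods' t-test, with skins 2 and 4 averaged or without control skin 3, and 0 to 2 with 1 array left out. In undifferentiated or spindle tumors against skin the shared fit gave 1 gene. Mixed tumors against skin gave 1 gene among brighter probesets, with array weights or without control skin 3 and p53 tumor 7, and 0 to 2 with 1 array left out. Mixed against undifferentiated or spindle tumors gave 1 in the shared fit and 0 to 1 with 1 array left out.

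The following values changed sign. Probeset 1441255_at of Cdh3 was at 0.144, 0.0605 and 0.0159 in all, pRbp53 and undifferentiated or spindle tumors against skin. Probeset 1431824_at of Cdh13 was at 0.0228, 0.0336, 0.0076 and 0.0542 in all, p53, pRbp53 and mixed tumors against skin, at -0.026 by genotype and at 0.033 in mixed against undifferentiated or spindle tumors, and 1454015_a_at was at 0.11 in pRbp53 tumors against skin. Cdh13 by genotype was 0.64 as deposited and -0.51 with histology as a covariate. Cdh13 in undifferentiated or spindle tumors against skin was -0.0192 after quantile normalization, -0.0228 with averaged skins, -0.0189 for 1434115_at, -0.11 without the casein arrays, -0.13 with spindle tumors only, and -0.13 to 0.21 with 1 array left out. Cdh1 in poorly differentiated tumors against skin was 0.0654 with array weights. With 1 array left out, the differences of poorly differentiated tumors from skin ran from -0.49 to 0.93 for Cdh2, -0.0084 to 1.24 for Cdh3 and -0.28 to 0.0662 for Cdh1, that of mixed tumors from -0.97 to 0.14 for Cdh2. Cdh11 in mixed against undifferentiated or spindle tumors was 0.11 with array weights, 1.13 without p53 tumor 7, 0.61 for 1435120_at, and -1.34 to 1.13 with 1 array left out.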
